A study of Mus musculus with 12 samples.

Results

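The 30 genes described here are SREBP-regulated genes of sterol and fatty acid synthesis, taken from a given list and looked up by symbol among the 19938 genes of the mouse kidney array table. All 30 were measured. Where a gene had several probe sets, the brightest on average was used. The rule itself uses measured values only in that choice of probe set, for Acaca, Fdft1, Idi1 and Me1. The list was, however, chosen with earlier results of these data known. Kidney RNA of female mice was hybridised to 12 Affymetrix whole-transcript arrays, 4 in each of 3 groups. WT FGF23 were wild-type mice of the C57BL/6 strain label that received 500 ng recombinant FGF23 per g body weight into the peritoneum. KL null were mice without klotho, the co-receptor of FGF23, labelled 129/SvEv/C57BL/6 and given saline vehicle. WT vehicle were wild-type C57BL/6-labelled mice given 100 µl saline vehicle. All mice had eaten standard diet for 5 to 8 weeks and were killed 1 hour after injection. The wild-type mice are described as littermates of the KL null mice, but the strain labels differ, so genotype and strain cannot be told apart in these arrays. The labels do not say that replicates came from separate mice, so the p-values measure only the spread between these samples. With 4 arrays a group, their number limits the precision.

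Cells make cholesterol from acetyl-CoA through mevalonate, squalene and lanosterol, and they make fatty acids from the same acetyl-CoA by carboxylation, chain building, elongation and desaturation. The transcription factors SREBP-1 and SREBP-2, products of Srebf1 and Srebf2, switch on the genes of both pathways. When sterols are low, Scap escorts the SREBP precursors from the endoplasmic reticulum to the Golgi, where they are cut and released, and when sterols are plentiful Insig1 and Insig2 hold Scap back. In kidney, the tubule epithelium uses fatty acids mainly as fuel, and SREBP activity is best known there from lipid accumulation in diabetic kidneys.

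The labelled tissue and groups were checked first. All 8 proximal tubule markers, among them Lrp2 and Slc34a1, lay above the 75th percentile of gene means. The signal of Kl was 9.66 to 9.80 on the KL null arrays and 10.44 to 10.74 on the 8 wild-type arrays, a log2 difference of -0.89 against WT vehicle (adjusted p = 1.753e-05, limma), and the exons its probe set covers are not known here. The immediate early gene Egr1, which growth factor signalling switches on, read 8.93 to 9.69 on the WT FGF23 arrays and 5.98 to 6.33 on the WT vehicle arrays. The standard deviation of log2 values was 2.166 to 2.281 over the arrays, and it was lowest on WT FGF23 arrays 1 and 2 (2.166 and 2.167) and KL null arrays 1 and 2 (2.195 and 2.217).

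The bases upstream of the start of 4 members are shown. Fasn, Cyp51 and Insig1 were called in KL null kidney, and Hmgcs1, not called in either comparison, holds the match to the sterol regulatory element found among the member windows. They are from the RefSeq promoter table of GRCm38.p6, which holds 250 bases before to 50 after each start and matched 24 of the 30 members in 33 windows. Fasn is at chr11:120824548-120824797 on the minus strand, Cyp51 at chr5:4104698-4104947 on the minus strand, Insig1 at chr5:28071162-28071411 on the plus strand and Hmgcs1 at chr13:119690101-119690350 on the plus strand. Each is read 5′ to 3′ towards the gene, and capitals mark matches to the motifs named after them.
Fasn: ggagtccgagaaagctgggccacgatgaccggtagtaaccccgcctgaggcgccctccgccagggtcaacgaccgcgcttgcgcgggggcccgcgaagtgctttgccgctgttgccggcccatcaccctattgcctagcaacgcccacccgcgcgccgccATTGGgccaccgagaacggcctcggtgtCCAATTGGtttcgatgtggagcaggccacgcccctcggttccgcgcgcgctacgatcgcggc
Cyp51: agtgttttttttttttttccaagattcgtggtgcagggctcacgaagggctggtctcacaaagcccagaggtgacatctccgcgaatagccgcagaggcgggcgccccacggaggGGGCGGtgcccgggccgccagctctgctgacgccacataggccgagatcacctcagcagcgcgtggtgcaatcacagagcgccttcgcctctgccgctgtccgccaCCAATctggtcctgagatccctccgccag
Insig1: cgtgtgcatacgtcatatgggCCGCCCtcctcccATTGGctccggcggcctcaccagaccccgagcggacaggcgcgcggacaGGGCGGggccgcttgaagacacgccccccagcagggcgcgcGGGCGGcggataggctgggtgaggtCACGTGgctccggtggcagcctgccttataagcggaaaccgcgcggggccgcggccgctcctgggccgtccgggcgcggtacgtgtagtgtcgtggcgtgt
Hmgcs1: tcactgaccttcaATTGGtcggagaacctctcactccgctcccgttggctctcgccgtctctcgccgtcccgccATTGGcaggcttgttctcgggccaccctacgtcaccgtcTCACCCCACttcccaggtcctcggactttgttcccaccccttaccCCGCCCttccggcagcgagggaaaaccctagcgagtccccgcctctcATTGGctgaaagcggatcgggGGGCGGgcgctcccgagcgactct
The motifs were TCACNCCAC, a form of the sterol regulatory element bound by SREBPs, CCAAT, bound by NF-Y, GGGCGG, bound by Sp1, and CACGTG, the E-box, and all were searched on both strands. NF-Y and Sp1 are known partners of SREBPs at their target promoters.

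Over the full windows, CCAAT was found in 22 of the 33 member windows (66.7%), against 37.4% of all 32851 windows in the table. GGGCGG was found in 24 of the 33 member windows (72.7%), against 35.7% of all windows, and CACGTG in 6 (18.2%), against 7.15%. By gene, CCAAT was found in 21 of 24, GGGCGG in 20 and CACGTG in 5. Overlapping windows of Scap share the same CACGTG and a GGGCGG, so these sites entered the counts of both windows. The member windows were richer in G and C, with a median of 62.3% against 52.7% over all windows, and the part of base composition in these shares was not tested. The sterol regulatory element letters were found in 1 member window, that of Hmgcs1, starting 137 bases upstream of the start, and in 1.24% of all windows. Fasn held CCAAT or its complement at 90, 62 and 59 bases upstream, the last pair overlapping, and no GGGCGG. Cyp51 held CCAAT at 29 and GGGCGG at 135 bases upstream. Insig1 held CCAAT at 216 bases, GGGCGG at 229, 167 and 126 bases and the E-box at 101 bases upstream. The windows of Elovl6, the fatty acid elongase, and of Acaca held none of the motifs, and neither did a window of Pmvk. A match is a description of letters and not a bound site.

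In KL null kidney, 4 of 7 fatty acid genes were lower, and a few sterol genes moved either way. Scd1 and Cyp51 had the largest differences among the 30, each more than 3-fold lower in KL null than in WT vehicle kidney, and Elovl6, Fasn, Me1 and Scap were also lower. Insig1, Fdft1 and Pmvk were higher. In all, 9 of the 30 genes (30.0%) were called at an adjusted p below 0.05 (limma, Benjamini-Hochberg over all 19938 genes), against 8.01% of all genes. Of the 9, 3 were higher, where 3.58% of all genes were called higher, and 6 were lower, where 4.44% of all genes were called lower. On 9 of the 30 genes (30.0%) the KL null and WT vehicle arrays did not overlap, against 13.8% of all genes. Because the list was chosen with earlier results of these data known, these shares are a description and not a test of the pathway. The median log2 difference of the 30 was -0.06 against 0.03 over all genes, and the median absolute difference was 0.22 against 0.11. When arrays were centred on their medians, the split of all called genes was 428 higher and 1239 lower, against 713 and 885 as deposited, and that of the 30 genes was 1 higher and 7 lower. Without KL null replicate 3, or without WT vehicle replicate 3, 5 of the 30 were called, which were Cyp51, Fasn, Scd1, Elovl6 and Me1, all lower.

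**Figure D1:**
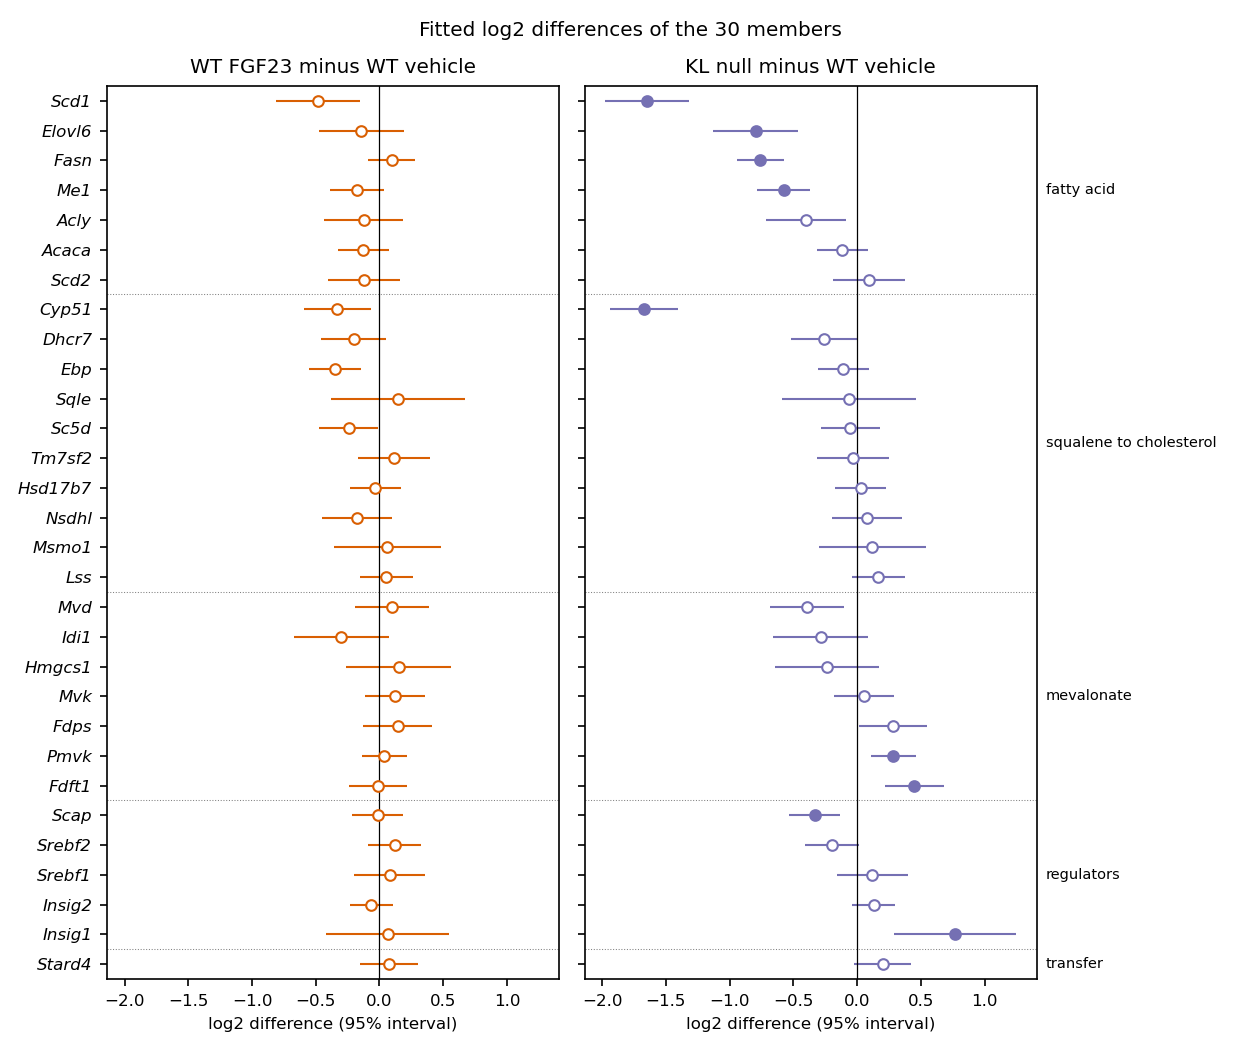
Log2 difference of each of the 30 genes with its 95% interval, for WT FGF23 minus WT vehicle at left and KL null minus WT vehicle at right. Filled points passed the test at an adjusted p below 0.05 (0 at left, 9 at right), open points did not, and dotted lines part the roles named at the right edge.

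Of the 7 genes of fatty acid synthesis and desaturation, 4 were called lower in KL null and 0 higher, and their median log2 difference was -0.58. Scd1, the desaturase that makes oleate and palmitoleate from saturated fatty acids, read 9.51, 9.76, 9.16 and 9.61 on the KL null arrays and 11.23, 10.97, 11.37 and 11.06 on the WT vehicle arrays. All 4 KL null arrays were more than 1 log2 unit below the lowest WT vehicle array. The mean was 9.51 ± 0.255 in KL null and 11.16 ± 0.178 in WT vehicle (SD, n = 4 each), a log2 difference of -1.65 (SE 0.155, adjusted p = 1.865e-05, limma), or 3.13-fold lower. Its relatives Scd2, Scd3 and Scd4 were not called, with log2 differences of 0.09, -0.07 and 0.05, and whether their transcripts bind the probes of Scd1 was not tested.

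Fasn, the synthase that builds palmitate, read 7.35, 7.37, 7.29 and 7.38 on the KL null arrays, against 8.24, 8.08, 8.23 and 7.88 on the WT vehicle arrays. The KL null arrays lay close together and all below both wild-type groups. The log2 difference was -0.76 (SE 0.0876, adjusted p = 0.0001174, limma), or 1.69-fold lower. Elovl6, which lengthens palmitate to stearate, read 9.25, 9.18, 9.12 and 9.08 in KL null and 9.92, 10.29, 9.98 and 9.62 in WT vehicle. All KL null arrays were again lowest, and the WT vehicle arrays were spread more widely (SD 0.0741 in KL null and 0.275 in WT vehicle). Elovl6 was 1.74-fold lower, a log2 difference of -0.80 (SE 0.157, adjusted p = 0.006119, limma). Me1, malic enzyme, which supplies NADPH for fatty acid synthesis, read 11.09, 11.05, 10.79 and 10.82 in KL null and 11.63, 11.44, 11.65 and 11.34 in WT vehicle. The groups did not overlap, and the log2 difference was -0.58 (SE 0.0985, adjusted p = 0.002431, limma), or 1.49-fold lower. A second probe set of Me1 averaged 10.91 in KL null and 11.45 in WT vehicle.

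The other 3 fatty acid genes did not pass. Acly, which makes cytosolic acetyl-CoA from citrate, read 8.99 to 9.24 in KL null and 9.09 to 9.77 in WT vehicle, with a log2 difference of -0.40 (95% interval -0.71 to -0.09, adjusted p = 0.1141, limma). Acaca, the carboxylase that makes malonyl-CoA, differed by -0.12 (95% interval -0.32 to 0.08) and Scd2 by 0.09 (95% interval -0.19 to 0.38), so differences of up to these bounds could not be told from 0. Scd1, Fasn, Elovl6 and Me1 also read lower on all 4 KL null arrays than on all 4 WT FGF23 arrays, the highest KL null array of each being 9.76, 7.38, 9.25 and 11.09, against a lowest WT FGF23 array of 10.30, 8.13, 9.47 and 11.24. Taken as the median over the 7 genes relative to the WT vehicle mean, the KL null arrays stood at -0.50, -0.47, -0.73 and -0.70. The WT FGF23 arrays stood at -0.292, -0.215, -0.017 and 0.003. The WT vehicle arrays, whose own mean is the reference, ranged between -0.18 and 0.14.

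**Figure D2:**
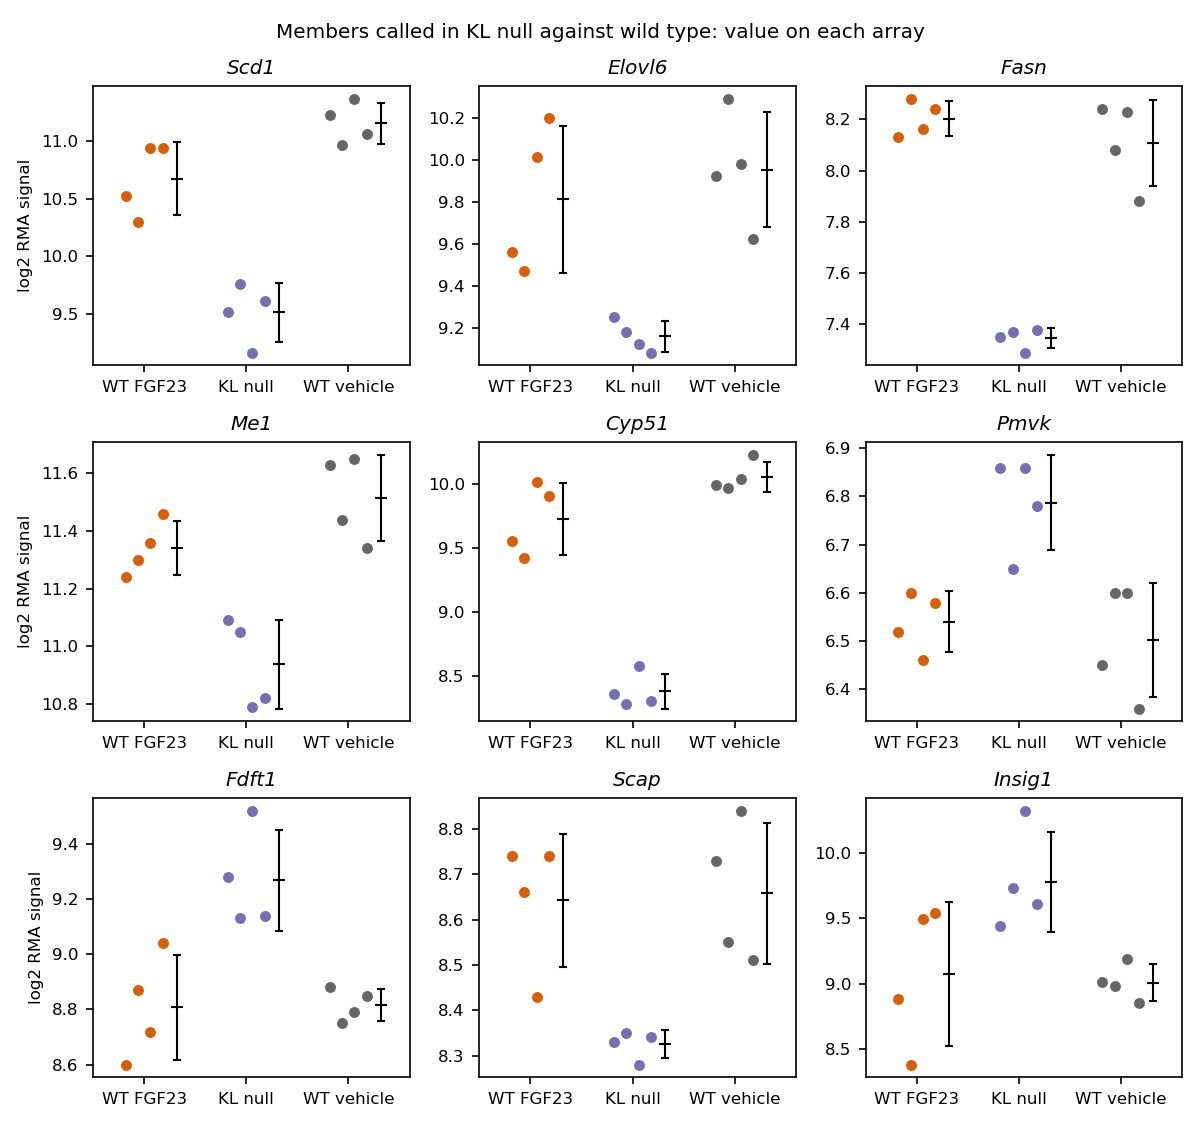
Log2 RMA signal on each array of the 9 genes called in KL null against WT vehicle, with points for the 4 arrays of WT FGF23, KL null and WT vehicle and a bar for the mean ± SD at the right of each group. Each panel has its own axis, which does not start at 0, and the KL null arrays of Scd1, Elovl6, Fasn, Me1, Cyp51 and Scap lie below all 8 wild-type arrays.

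Of the 10 genes that turn squalene into cholesterol, 1 was called, Cyp51, the lanosterol demethylase. Cyp51 read 8.36, 8.28, 8.58 and 8.31 on the KL null arrays and 9.99, 9.97, 10.04 and 10.23 on the WT vehicle arrays. No KL null array came within 1 log2 unit of a WT vehicle array. The log2 difference was -1.68 (SE 0.125, adjusted p = 2.78e-06, limma), or 3.19-fold lower. The enzymes before and after this step were not called. Sqle, squalene epoxidase, differed by -0.06 (95% interval -0.59 to 0.46), and Lss, which closes the sterol rings to give lanosterol, by 0.17 (95% interval -0.04 to 0.37). After the demethylase, Tm7sf2, the sterol reductase, differed by -0.03, Msmo1, the methyl sterol oxidase, by 0.12, Nsdhl, the decarboxylating dehydrogenase, by 0.08 and Hsd17b7, the keto-reductase, by 0.03. Of the last enzymes, Ebp, the sterol isomerase, differed by -0.11, Sc5d, the sterol desaturase, by -0.05 and Dhcr7, the reductase that yields cholesterol, by -0.26. The smallest adjusted p among these 9 was 0.2355 for Dhcr7. The interval of Sqle was the widest of the 30 in this comparison.

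**Figure D3:**
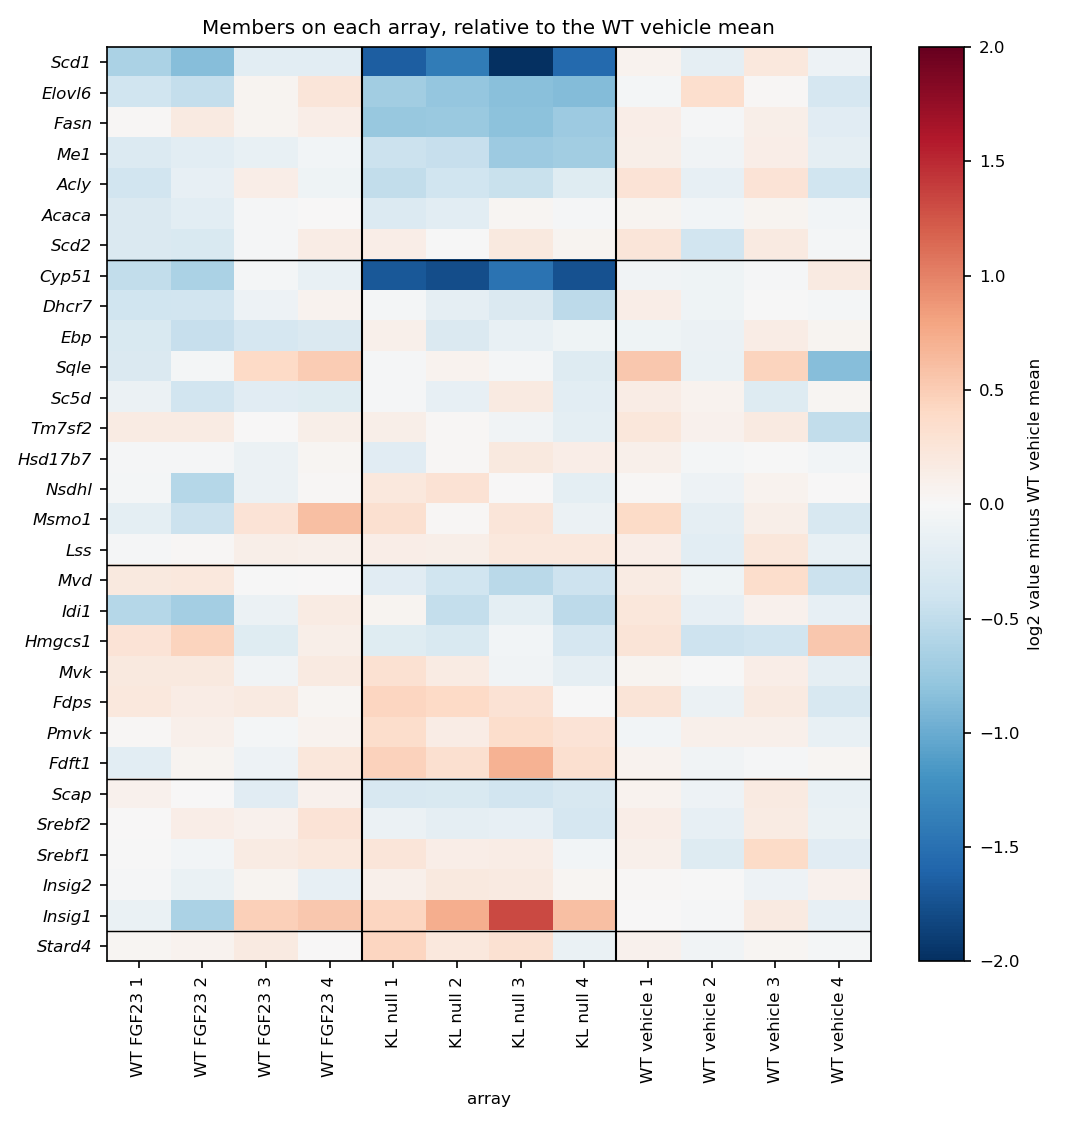
Value of each of the 30 genes on each of the 12 arrays minus the gene's WT vehicle mean, on the log2 scale, with blue for lower and red for higher. Genes are grouped by role from fatty acid synthesis at the top to sterol transfer at the bottom, and Scd1 and Cyp51 are darkest blue across all 4 KL null arrays.

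Of the 7 genes from acetyl-CoA units to squalene, 2 were called, both higher in KL null. Fdft1, squalene synthase, read 9.28, 9.13, 9.52 and 9.14 in KL null and 8.88, 8.75, 8.79 and 8.85 in WT vehicle. All KL null arrays were above all 8 wild-type arrays, and the log2 difference was 0.45 (SE 0.107, adjusted p = 0.01785, limma), or 1.37-fold. The second probe set of Fdft1 averaged 8.48 in KL null and 7.93 in WT vehicle. Without KL null replicate 3 the adjusted p of Fdft1 was 0.0667, and without WT vehicle replicate 3 it was 0.057 (limma). Pmvk, phosphomevalonate kinase, read 6.86, 6.65, 6.86 and 6.78 in KL null and 6.45, 6.60, 6.60 and 6.36 in WT vehicle. The groups did not overlap, and the gap between the nearest arrays was small. Its log2 difference was 0.29 (SE 0.0835, adjusted p = 0.04905, limma), and the adjusted p was 0.022 to 0.139 over the alternatives tried, above the threshold in 20 of 24.

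The other 5 mevalonate genes were not called. Mvd, which decarboxylates mevalonate diphosphate, read 7.61, 7.43, 7.29 and 7.41 in KL null, against 7.99, 7.75, 8.18 and 7.40 in WT vehicle. WT vehicle replicate 4 lay among the KL null arrays, and without it Mvd had a log2 difference of -0.54 and an adjusted p of 0.0113 (limma), against -0.40 and 0.09353 with it. Fdps, farnesyl diphosphate synthase, differed by 0.28 (95% interval 0.01 to 0.55, adjusted p = 0.2084), and Idi1, the isomerase, by -0.29 (95% interval -0.66 to 0.09). Hmgcs1, the HMG-CoA synthase whose promoter is shown above, differed by -0.24 (95% interval -0.65 to 0.18). Mvk, mevalonate kinase, differed by 0.06 (95% interval -0.18 to 0.29).

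Of the 5 genes for SREBPs and their regulators, 1 was called higher and 1 lower in KL null. Insig1, the sterol-sensing anchor that is itself an SREBP target, read 9.44, 9.73, 10.32 and 9.61 in KL null and 9.01, 8.98, 9.19 and 8.85 in WT vehicle. These groups did not overlap, but WT FGF23 arrays, at 8.88, 8.38, 9.49 and 9.54, reached into the KL null range. The mean was 9.78 ± 0.382 in KL null and 9.01 ± 0.140 in WT vehicle (SD, n = 4 each), a log2 difference of 0.77 (SE 0.226, adjusted p = 0.04995, limma), or 1.70-fold. The adjusted p of Insig1 stood at the threshold and was 0.00464 to 0.159 over the 24 alternatives, above it in 12. Without KL null replicate 3, its highest array, the log2 difference was 0.59 (adjusted p = 0.159, limma). Scap, the escort, read 8.33, 8.35, 8.28 and 8.34 in KL null and 8.73, 8.55, 8.84 and 8.51 in WT vehicle. All KL null arrays lay below all 8 wild-type arrays. The log2 difference was -0.33 (SE 0.094, adjusted p = 0.04197, limma), or 1.26-fold lower, and its adjusted p was 0.0111 to 0.141 over the alternatives, above the threshold in 12 of 24.

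The genes of the SREBPs themselves were not called. Srebf1 read 7.76, 7.65, 7.66 and 7.46 in KL null and 7.62, 7.25, 7.90 and 7.28 in WT vehicle. The KL null arrays lay inside the WT vehicle range, and the log2 difference was 0.12 (SE 0.13, 95% interval -0.16 to 0.40, adjusted p = 0.6799, limma). Srebf2 read 8.78, 8.71, 8.72 and 8.56 in KL null and 9.03, 8.72, 9.06 and 8.75 in WT vehicle, which overlap. Its log2 difference was -0.20 (SE 0.0979, 95% interval -0.41 to 0.01, adjusted p = 0.265, limma). Insig2 read 9.14, 9.24, 9.21 and 9.08 in KL null and 9.06, 9.03, 8.94 and 9.12 in WT vehicle. These overlap too, with a log2 difference of 0.13 (SE 0.0786, adjusted p = 0.3828, limma). Stard4, which carries cholesterol between membranes, differed by 0.20 (95% interval -0.02 to 0.42, adjusted p = 0.3, limma).

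**Figure D4:**
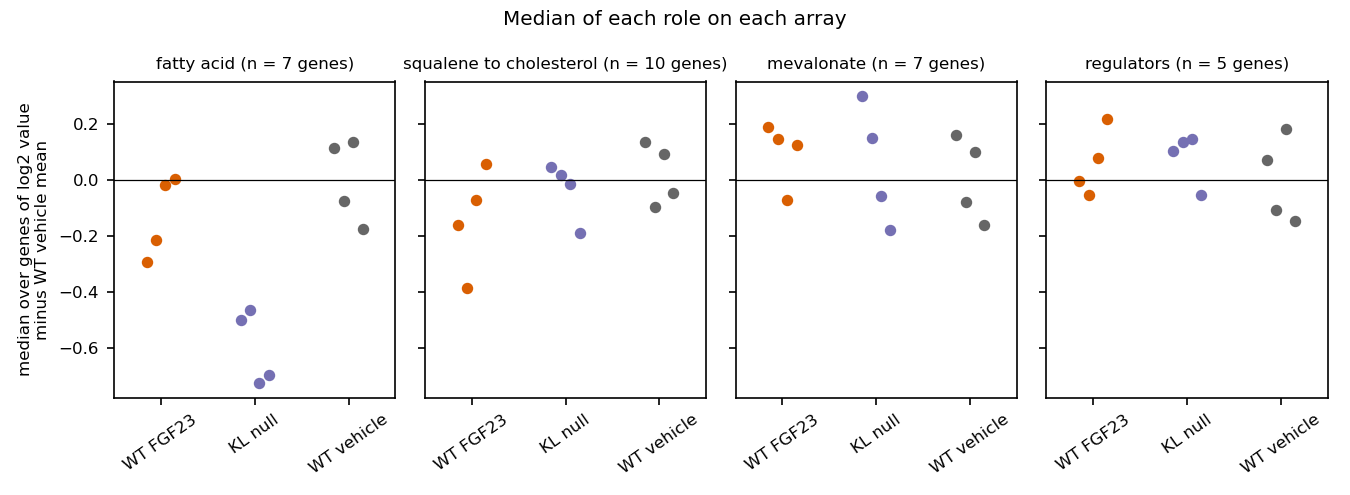
Median over the genes of each role, on each array, of the log2 value minus the gene's WT vehicle mean, for 7 fatty acid genes, 10 genes from squalene to cholesterol, 7 mevalonate genes and 5 regulators. The fatty acid medians of the 4 KL null arrays lie between -0.73 and -0.47, below those of the other 8 arrays.

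FGF23 given 1 hour before was followed by no call among the 30 genes. In limma 0 of 30 were called, against 0.0853% of all genes, which were 17 genes. At an unadjusted p below 0.05 there were 4 of the 30, against 3063 of all genes (15.4%). The groups did not overlap on 2 of the 30 (6.67%), against 7.01% of all genes. The median log2 difference of the 30 was -0.01, against 0.04 over all genes, and the median absolute difference was 0.121, against 0.115. This comparison and that of KL null share the WT vehicle arrays, so their differences are not independent.

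Ebp, the sterol isomerase, had the smallest p of the 30 after FGF23. It read 8.27, 8.12, 8.25 and 8.29 on the WT FGF23 arrays and 8.49, 8.47, 8.73 and 8.64 on the WT vehicle arrays. The groups did not overlap, and the log2 difference was -0.35 (SE 0.0953, adjusted p = 0.241, limma). Scd1 read 10.52, 10.30, 10.94 and 10.94 on the WT FGF23 arrays, against the WT vehicle values given above. The highest WT FGF23 array lay just under the lowest WT vehicle array, at 10.94 against 10.97. The log2 difference was -0.48 (SE 0.155, adjusted p = 0.2516, limma), 1.40-fold lower, and without WT FGF23 arrays 1 and 2, those of lowest standard deviation, it was -0.22 (adjusted p = 0.996, limma). Cyp51 read 9.56, 9.42, 10.02 and 9.91 on the WT FGF23 arrays, and arrays 1 and 2 were again the lowest. Its log2 difference was -0.33 (SE 0.125, adjusted p = 0.2726, limma), and -0.09 without those arrays. Over the alternatives the adjusted p was 0.115 to 0.996 for Ebp and 0.109 to 0.996 for both Scd1 and Cyp51.

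Sc5d was the remaining gene at an unadjusted p below 0.05, with a log2 difference of -0.24 after FGF23 (95% interval -0.47 to -0.01, adjusted p = 0.308, limma). The regulators lay close to 0. Insig1 read as given above on the WT FGF23 arrays and spread more than in WT vehicle (SD 0.551 in WT FGF23 and 0.140 in WT vehicle), with a log2 difference of 0.07 (SE 0.226, adjusted p = 0.9032, limma). Srebf1 read 7.51, 7.46, 7.67 and 7.73 on the WT FGF23 arrays, all inside the WT vehicle range, and differed by 0.08 (SE 0.13, adjusted p = 0.7732, limma). Srebf2 read 8.89, 9.02, 8.97 and 9.16, overlapping WT vehicle, and differed by 0.12 (SE 0.0979, adjusted p = 0.5434, limma). Scap read 8.74, 8.66, 8.43 and 8.74 and differed by -0.02 (SE 0.094, adjusted p = 0.9493, limma), and Insig2 read 9.01, 8.91, 9.09 and 8.88 and differed by -0.07 (SE 0.0786, adjusted p = 0.6916, limma). Fasn differed by 0.10 (95% interval -0.08 to 0.28, adjusted p = 0.5931, limma). The other 20 genes had log2 differences between -0.30 for Idi1 and 0.15 for Hmgcs1.

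All 30 genes had mean values above the median of all genes, which was 6.57, and 20 of the 30 were above the 75th percentile of 8.15. Their means ran from 6.61 for Pmvk to 11.26 for Me1. These values rank probe sets with different probes, so they are not amounts that can be set against each other. Acaca and Idi1, like Fdft1 and Me1, had a second probe set. That of Acaca averaged 6.76 in WT FGF23, 6.78 in KL null and 6.88 in WT vehicle, and that of Idi1 averaged 8.47, 8.41 and 8.70 in the same order, and neither gene was called in either comparison.

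Genes of the same pathways outside the 30 were counted in KL null in the same way, where 8.01% of all genes were called. Of 11 other sterol synthesis and uptake genes measured, 0 were higher and 1 was lower. This was Aacs, which makes acetoacetyl-CoA in the cytosol for lipid synthesis, at 6.64, 7.25, 7.33 and 7.75 in KL null and 8.79, 8.56, 9.04 and 8.44 in WT vehicle. It was 2.76-fold lower, a log2 difference of -1.47 (SE 0.194, adjusted p = 0.000393, limma), with no overlap between groups. Ggps1 and Erg28, the next by p, differed by 0.25 and 0.27 (adjusted p = 0.0871 and 0.112, limma). Of 9 genes of SREBP processing and sterol-regulated degradation, 1 was lower, Mbtps1, the protease that makes the first cut in SREBPs (log2 difference -0.33, adjusted p = 0.0471, limma). Fbxw7, which marks cut SREBPs for degradation, and Sec24d, a coat protein of transport vesicles, were not called. Of 27 other fatty acid and glycerolipid genes, 2 were lower and 0 higher. They were Acss1, the mitochondrial acetyl-CoA synthetase (log2 difference -0.42, adjusted p = 0.005368, limma), and Fads2, a desaturase of polyunsaturated fatty acids (-0.31, adjusted p = 0.04239, limma). Elovl1, an elongase, was next and was not called. The median log2 difference was 0.11, -0.06 and -0.09 in these 3 lists.

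Of 14 genes for LXR factors and sterol efflux, 3 were higher and 2 lower in KL null, against 3.58% higher and 4.44% lower over the whole table. Apoe, the lipoprotein component that carries sterol away from cells, read 11.99, 12.25, 12.28 and 12.19 in KL null and 10.62, 10.92, 11.13 and 11.07 in WT vehicle. It was 2.37-fold higher, with a log2 difference of 1.24 (SE 0.122, adjusted p = 2.9e-05, limma). Cyp7b1, an oxysterol hydroxylase, was 0.48 higher (adjusted p = 0.008545), and Nr1h3, the LXR alpha receptor that senses oxysterols and activates Srebf1, differed by -0.61 (adjusted p = 0.004007, limma). The other 2 calls, picked out after their values were seen, were the efflux pump Abca1 at 0.80 (adjusted p = 0.01005, limma) and the lipase Lpl at -0.995 (adjusted p = 0.04835, limma). Abca1 read 8.11, 9.08, 8.98 and 8.98 in KL null and 7.80 to 8.20 in WT vehicle, so KL null array 1 lay inside the WT vehicle range. After FGF23, 0 genes were called in each of these 4 lists. The smallest adjusted p was 0.526 for Ggps1, 0.316 for Erlin2, 0.241 for Mid1ip1 and 0.287 for Abcg5.

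Marker genes of other cell types also differed between KL null and WT vehicle kidney, and fewer cells of a type and less RNA per cell cannot be told apart in such samples. Over the whole table, 3.58% passed the test as higher and 4.44% as lower. Of the 8 proximal tubule markers, 4 were lower in KL null and 0 higher, led by Lrp2 at -0.50, Miox at -0.51 and Cubn at -0.39. The fourth was Slc34a1, named after its value was seen. The mean of the list was 11.64 to 11.80 on the KL null arrays and 11.87 to 12.07 on the WT vehicle arrays. Of the 8 myeloid markers, 4 were higher, led by Lyz2 at 1.71, Itgam at 0.88 and Tyrobp at 0.61, and 1 was lower. Cd68, the fourth that was higher, and Csf1r, the lower, were named after their values were seen. The list had means of 7.29 to 7.94 in KL null and 6.85 to 7.43 in WT vehicle. Of the 4 hepatocyte markers, Alb and Ttr were lower at -1.22 and -0.84, and Apoa1 and Fgb were not called at 0.26 and 0.04. Their list means were 6.39 to 6.90 in KL null and 6.88 to 7.27 in WT vehicle. The part of these cell types in the lower Scd1, Fasn, Elovl6, Me1 and Cyp51 values was not tested. Nor was their part in the higher Apoe, Abca1 and Cyp7b1 values. Of 9 adipocyte markers, 0 were called in either comparison and 7 lay below the median gene. Adipoq, the fat cell hormone, read 3.41 to 3.82, and the list mean was 5.09 to 5.23 in KL null and 5.07 to 5.33 in WT vehicle. All 13 adrenal markers lay below the median gene, and 1, Hsd3b1, was higher in KL null at 0.60 (adjusted p = 0.01241, limma). Hsd3b1 was among the dimmest genes, with a mean of 3.23 (percentile 4.11) and arrays from 2.73 to 3.87.

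In the remaining marker lists, 1 of 5 thick ascending limb and distal tubule genes (Slc12a3), 1 of 4 podocyte genes (Podxl), 0 of 6 collecting duct genes and 0 of 2 erythroid genes were lower in KL null, and 0 were higher. After FGF23, 0 genes were called in each of the 9 marker lists.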

How the data were processed

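Kidney RNA of 12 mouse samples in 3 groups of 4 was labelled by a whole-transcript protocol and hybridised to Affymetrix arrays, per the labels' protocols. Per the submitters' processing notes, the authors used Partek 6.2 and RMA, and the deposited values are log2 signals per probe set. RMA compresses differences of dim probe sets, so folds of dim genes may be understated. No background call was possible without scanner files, which were not analysed here, and precision is limited by the number of arrays.

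The table held 28853 probe sets, of which 21789 had 1 gene symbol, 1621 several and 5443 none. Entrez identifiers of 21698 matched the RefSeq gene table of GRCm38.p6. This left 19938 genes, and where a gene had several probe sets (999 genes) the brightest on average was used. limma 3.58.1 in R 4.3.3 was fitted once to all 12 arrays with 3 group means (two-sided, moderated), and a gene was called at a Benjamini-Hochberg adjusted p below 0.05 over all genes. The script was tested on simulated data. Other tools were Python 3.11.15, matplotlib 3.10.9 and pandas 2.3.3.

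The members, gene lists and tests were chosen with earlier results of these data known, so no list was given a test of its own. Full values are given for called members, for the 5 regulators and, where no member was called, for the 3 of smallest p, and from each other list the 3 genes of smallest p may be named. The other lists were sterol synthesis and uptake, SREBP processing, fatty acid and glycerolipid synthesis, LXR factors and efflux, and markers of proximal tubule, thick ascending limb and distal tubule, collecting duct, podocytes, adipocytes, adrenal gland, myeloid cells, erythroid cells and hepatocytes. Alternatives changed the normalization, the array weights, the moderation, the filter on dim genes, the probe set per gene, the features adjusted over, the samples and the replicate numbering. The HBEGF treatment named in the protocol was not analysed here.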

Additional observations from a re-analysis of the deposited data

Results flagged for a closer look

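Mvk in WT FGF23 replicate 3 read 6.96, against 7.21 to 7.22 on the other 3 arrays of its group, a gap of 0.962 of the group's range. It was the single array to stand apart in this way among the 90 groups of 4 arrays examined for the 30 genes, and chance alone marks about 1 group in 20.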

How the results depend on the processing

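The alternatives left the counts of called members and the median differences close to those reported, with the exceptions given here. After FGF23, 0 of the 30 genes were called under all 24 alternatives, and in KL null the count was 9, with 5 to 9 when each array was left out in turn and 11 (3 higher, 8 lower) with array quality weights. It was 5 without WT vehicle replicate 3 and 5 without KL null replicate 3, where Pmvk, Insig1, Scap and Fdft1 lost their calls. Without KL null arrays 1 and 2, an alternative chosen after seeing the data, 6 were called. Cyp51, Fasn, Scd1, Elovl6 and Me1 were called lower under all 24, with a highest adjusted p of 0.000135, 0.00176, 0.000205, 0.0285 and 0.0127 (limma). Pmvk lost its call in 20, Insig1 and Scap in 12 each and Fdft1 in 2. Mvd was gained in 3 settings, Acly in 2 and Stard4 in 1. Leave-one-out medians were -0.07 to 0.01 after FGF23 and -0.08 to 0.02 in KL null. Of the genes not called, 18 of 30 after FGF23 and 7 of 21 in KL null changed sign in some setting, so no direction is drawn from them. Over all genes, the 17 calls after FGF23 became 4 to 14 when an array was left out, 7 in a fit of the 2 groups alone, 10 after quantile normalization, 6 on centred arrays, 11 with the array standard deviation as covariate, 5 over all probe sets and 8 without WT FGF23 arrays 1 and 2. In KL null the 1598 calls became 828 to 1728 when an array was left out (831 and 828 without WT vehicle replicates 1 and 3, 1003 and 856 without KL null replicates 2 and 3), and array quality weights called 1398 higher and 1454 lower. With the replicate number as a block, 7 of the 30 were called in KL null and 0 after FGF23, and over all genes 6 after FGF23 and 729 higher with 819 lower in KL null. Same-numbered arrays did not deviate together, with correlations of -0.216, 0.191, 0.112 and -0.159 for WT FGF23 with WT vehicle and -0.137, 0.169, -0.04 and -0.018 for KL null with WT vehicle, so the numbers were not taken as pairs.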

Other observations

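The median pooled SD within groups was 0.19 over the 30 genes and 0.149 over all genes, and 20 of the 30 lay above the all-gene median and 10 below it. This difference was not tested. Sqle (0.436), Insig1 (0.395), Msmo1 (0.342) and Hmgcs1 (0.331) had the widest spread, and Insig2 (0.082) and Pmvk (0.096) the narrowest. Sqle, squalene epoxidase, read 8.32 on WT vehicle array 4 and 9.04 to 9.71 on the other WT vehicle arrays, while Hmgcs1, HMG-CoA synthase, read 10.43 there and 9.47 to 10.15 on the others. The same array was also the lowest of its group for other members, among them Mvd, Tm7sf2, Msmo1 and Fdps, at 7.40, 6.78, 9.49 and 6.63. These also included Fasn, Elovl6, Me1, Scap, Insig1 and Pmvk, which were called in KL null. Of the 30 genes, 26, 4, 23 and 6 read above their WT vehicle mean on WT vehicle arrays 1 to 4. On WT FGF23 arrays 1 and 2, Idi1 read 8.31 and 8.20 and Msmo1 read 9.61 and 9.39, against 8.76 and 9.05 and 10.09 and 10.41 on arrays 3 and 4. Hmgcs1 went the other way, at 10.16 and 10.33 on arrays 1 and 2 and 9.65 and 10.01 on arrays 3 and 4.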
